A study of Caenorhabditis elegans with 39 samples.

Results

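The mature miRNAs described here come from the 4 C. elegans hairpins mir-244, mir-254, mir-1022 and mir-76. They were chosen by measured values, namely falling levels from 18 to 30 h in the N2 or the Alg1E libraries in earlier results of these data. All arm entries of these hairpins in the count table were taken, which gave 8 of its 437 entries, miR-244-5p, miR-244-3p, miR-254-3p, miR-254-5p, miR-1022-5p, miR-1022-3p, miR-76-3p and miR-76-5p. Of these, 7 passed the filter on low counts, as did 243 entries in all, and miR-1022-3p did not. Small RNA was sequenced from whole worms in 39 libraries. There was 1 library per hour from 18 to 30 h at 25 °C after synchronized L1 larvae were plated, for each of 3 genotypes. N2 is the common laboratory wild type. The mutants, Alg1A and Alg1E, carry changes in alg-1 in the N2 background, and the labels do not spell out what the letters A and E stand for. The series title concerns phosphorylation of the ALG-1 protein and its binding of miRNAs. The labels give no culture or replicate number, so each p-value rests on the spread from hour to hour, part of which may be technical. Because N2 and Alg1E hours chose the members, their changes with time are given as description with no test. The Alg1A time course was not part of that choice and was tested. The mean levels of the genotypes at matched hours and the balance of the 2 arms of each hairpin were tested too. These are contrasts other than the fall with time, but every comparison between genotypes uses N2 or Alg1E libraries, whose hours chose the members. A late fall in 1 genotype also lowers its mean, so the p-values of these comparisons are not independent of the choice.

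A miRNA is cut from a hairpin precursor as a duplex of a 5p and a 3p strand. An Argonaute protein such as ALG-1 takes up the duplex, keeps the guide strand, which then pairs with target mRNAs, and sheds the passenger strand, which is usually degraded. The arm of a hairpin with more reads is called the major arm here and the other the minor arm, as a label for read number and not for function. In larvae, miRNA levels change with developmental stage, and lin-4 and let-7 are the classic cases of miRNAs that appear as larvae age. The miRNAs described here were taken for the opposite course.

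On WBcel235, whose coordinates equal those of ce11, mir-244 lies on chromosome I from 4684316 to 4684414 on the minus strand. It is intergenic, and the nearest protein-coding gene, chd-7, is 1451 bases away. mir-254 lies on chromosome X from 11333531 to 11333630 on the minus strand, in an intron of gcy-9 on the same strand. gcy-9 encodes a receptor-type guanylate cyclase used by the BAG neurons to sense CO2. mir-1022 lies on chromosome X from 6435425 to 6435512 on the minus strand and is intergenic, 928 bases from K10C2.8. mir-76 lies on chromosome III from 3142045 to 3142141 on the plus strand, 57 bases from C44B11.4, a gene of the opposite strand. No other annotated hairpin lies within 10000 bases of any of the 4, so none of them is part of a miRNA cluster at that distance. The annotated major arms are miR-244-5p with 24 bases, miR-76-3p with 22, miR-1022-5p with 23 and miR-254-3p with 17.

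The libraries held 1751599 to 4479656 miRNA reads in N2, 1245377 to 4472517 in Alg1A and 1146950 to 4668890 for Alg1E. Levels are in CPM, counts-per-million of the miRNA reads after TMM scaling. 3 libraries stood apart. In Alg1A at 18 and 19 h the muscle marker miR-1-3p stood at 36473 and 17158 CPM, where no N2 library was below 66519, and the intestinal marker miR-60-3p stood at 7336 and 5239 CPM, where no N2 library was below 20573. In Alg1E at 27 h, miR-60-3p was at 8050 CPM and the summed level of 3 neuronal markers at 88.9 CPM, both the lowest of the 13 Alg1E libraries. Results that change without these libraries are given with and without them. Since whole worms were sequenced, fewer cells that make a miRNA and less of it per cell cannot be told apart.

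The 4 major arms followed 2 courses in N2. miR-254-3p and miR-1022-5p were lower at late hours than at any early hour. miR-244-5p and miR-76-3p were highest at 18 h and lowest at 23 h, and rose again after that. miR-244-5p reached 5504 CPM at 25 h and was back at 3092 CPM at 30 h, near its 23 h level of 3081 CPM. In N2, miR-254-3p was 192 ± 31.5 CPM at 18 to 20 h (SD, n = 3 hours), 160 CPM at 21 to 25 h and 87.5 CPM at 26 to 30 h. Its lowest library was 30 h with 62.5 CPM, its median 133 CPM and its highest 24 h with 242 CPM. The early hours lay between 158 and 221 CPM and the late hours between 62.5 and 124 CPM, with no overlap. miR-1022-5p had window means of 74.6, 53.7 and 30.2 CPM, with 83.1 CPM at 19 h as the highest, a median of 47.5 CPM and 24.7 CPM at 30 h as the lowest. Its early hours of 64.4 to 83.1 CPM also lay above its late hours of 24.7 to 39.7 CPM. Between 24 and 25 h, miR-254-3p went from 242 to 108 CPM and miR-1022-5p from 60.3 to 38.5 CPM in N2, the largest step between neighbouring hours for miR-254-3p there.

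miR-244-5p was the most read of the 8 arms. In N2 it stood at 8424 CPM at 18 h, its highest library, with a median of 4228 CPM and a minimum of 3081 CPM at 23 h, and its window means were 6324, 4063 and 3915 CPM. miR-76-3p stood at 648 CPM at 18 h and 225 CPM at 23 h in N2, with a median of 438 CPM, and its window means were 549, 352 and 457 CPM. Its late hours, 352 to 520.5 CPM, overlapped the early ones of 494 to 648 CPM. The fitted log2 change from 18 to 30 h in N2, from a smooth curve (a spline) through the 13 hours, was -1.72 for miR-1022-5p and -1.69 for miR-254-3p, the ranks 5 and 6 from the lowest among 243 miRNAs. It was -1.31 for miR-244-5p, rank 14, and -0.75 for miR-76-3p, rank 46. Among the minor arms it was -1.11 for miR-254-5p, -0.60 for miR-76-5p and -0.18 for miR-244-3p. All 7 fitted values were below 0, as were 121 of the 243, but these are the values that chose the members.

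**Figure D1:**
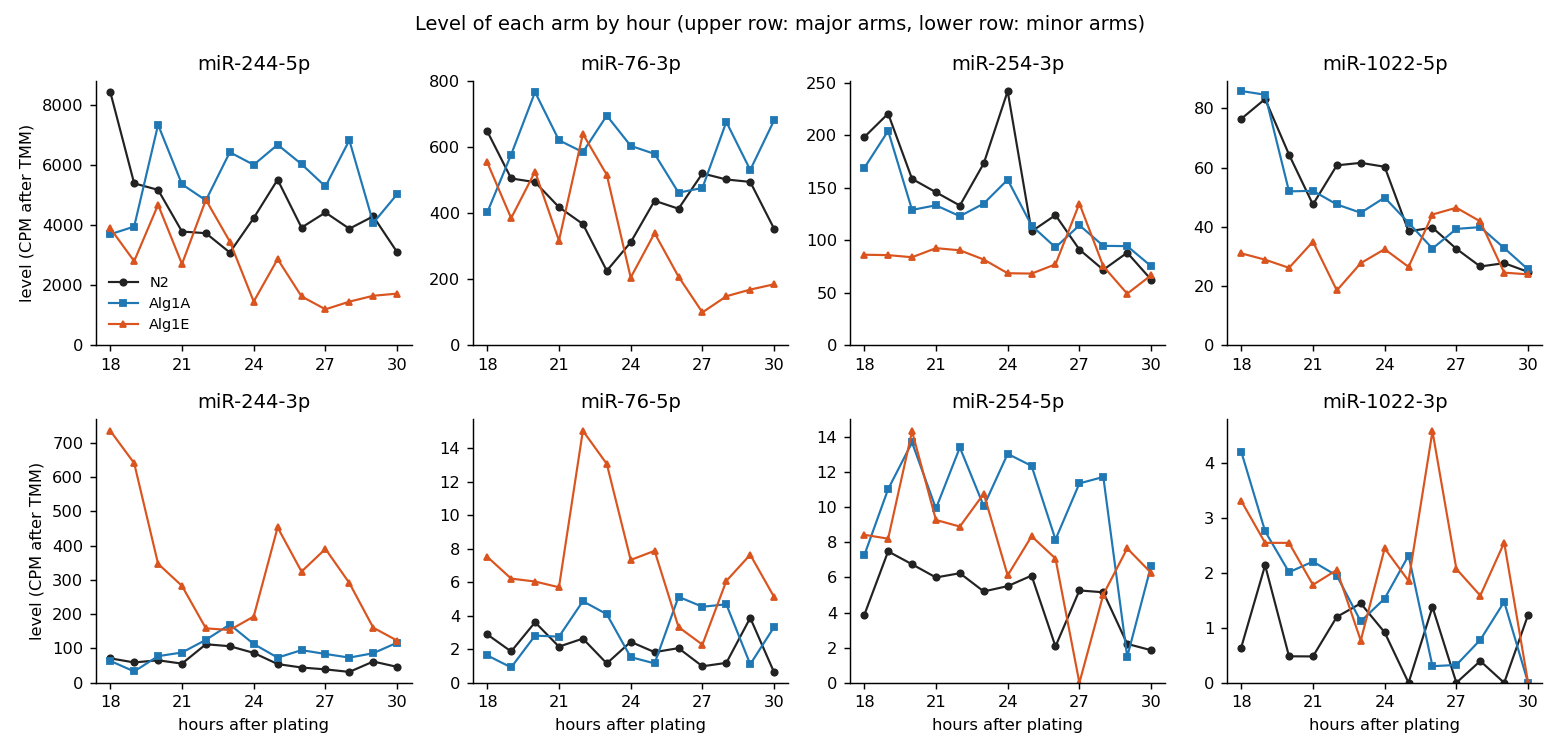
Level of each arm in CPM after TMM scaling (vertical axis, linear from 0) against hours after plating, with 1 point per library, for N2 (black circles), Alg1A (blue squares) and Alg1E (orange triangles). The major arms are in the upper row and the minor arms in the lower row. miR-254-3p and miR-1022-5p decline in N2 and Alg1A and start low in Alg1E, while miR-244-5p and miR-76-3p in Alg1E are lower at 26 to 30 h than at any hour up to 23 h.

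The Alg1A hours did not enter the choice. There, miR-1022-5p and miR-254-3p fell over the 13 hours and miR-244-5p and miR-76-3p did not pass the test, and the difference between the pairs was not itself tested. The test takes any change with hour, in whatever shape. The fitted change from 18 to 30 h gives a direction and has no p-value of its own. In Alg1A, miR-1022-5p was 85.8 CPM at 18 h, its highest, and 25.6 CPM at 30 h, its lowest, with a median of 44.7 CPM. Its fitted log2 change was -1.67, a 3.18-fold lower level at 30 h (edgeR quasi-likelihood test, adjusted p = 8.92e-04). miR-254-3p had its highest library at 19 h with 204 CPM, a median of 123 CPM and its lowest at 30 h with 75.2 CPM. Its fitted log2 change was -1.21, a 2.31-fold lower level (edgeR, adjusted p = 0.00992). For both, the early hours did not overlap the late ones, with 51.9 to 85.8 against 25.6 to 39.9 CPM for miR-1022-5p and 129 to 204 against 75.2 to 114 CPM for miR-254-3p. The share of all miRNAs with such a separation in Alg1A was not counted. Of the 243 miRNAs, 107, or 44.0%, changed with hour in Alg1A, 49 of them (20.2%) lower and 58 (23.9%) higher, so 3 of 7 members called is close to the share among all. The 3rd was miR-244-3p, with an uneven course and a fitted log2 change of 1.17 (edgeR, adjusted p = 0.0489). Its fitted log2 level was 5.52 at 18 h, 6.92 at 22 h, 6.38 at 27 h and 6.69 at 30 h. A straight line in hours gave a change of 0.46 and was not called (edgeR, adjusted p = 0.491). The level of miR-244-3p was 33.1 CPM at 19 h, the lowest, 170 CPM at 23 h, the highest, and 117 CPM at 30 h, and its call was lost in 13 of 23 alternative settings. Among these was the setting without the 3 libraries that stood apart, with a fitted change of 0.49 (edgeR, adjusted p = 0.0541).

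miR-244-5p in Alg1A ran from 3688 CPM at 18 h, its lowest, to 7330 CPM at 20 h, its highest, with a median of 5351 CPM and 5023 CPM at 30 h. Its fitted log2 change was 0.26, and the test for any change with hour did not pass (edgeR, adjusted p = 0.201). Without the 20 h library the fitted change was 0.38 and that test passed (edgeR, adjusted p = 0.0288), which does not by itself show a rise. miR-76-3p had its lowest and highest levels at the same hours, 402 CPM at 18 h and 767 CPM at 20 h, around a median of 585 CPM, and its fitted log2 change was 0.57 (edgeR, adjusted p = 0.164). The low levels of both at 18 h fell in a library that stood apart in its muscle and intestinal markers, and the part of these markers in the result was not tested. Without the 18 and 19 h libraries the fitted changes were -0.61 and -0.19, and neither was called. They span 20 to 30 h and so start at the highest library of both miRNAs. The sign of the change in these 2 miRNAs thus depends on which hours are spanned. Without the same libraries, miR-1022-5p and miR-254-3p fell too, by 1.03 and 0.76 on the log2 scale from 20 to 30 h (edgeR, adjusted p = 0.0383 and 0.0389). The minor arms miR-254-5p and miR-76-5p had fitted changes of -0.72 and 0.88 and were not called (edgeR, adjusted p = 0.231 and 0.568).

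The Alg1E courses were different again. miR-254-3p and miR-1022-5p were low from the first hour and nearly level, while miR-244-5p and miR-76-3p were lower at 26 to 30 h than at any hour up to 23 h. miR-254-3p had window means of 85.2, 80.2 and 80.5 CPM in Alg1E, with a median of 81.6 CPM, a minimum of 49.0 CPM at 29 h and a maximum of 135 CPM at 27 h. miR-1022-5p had window means of 28.7, 28.0 and 36.2 CPM, with a median of 28.9 CPM, a minimum of 18.5 CPM at 22 h and a maximum of 46.4 CPM at 27 h. Both maxima fell in the Alg1E library of 27 h that stood apart. miR-244-5p in Alg1E reached 4834 CPM at 22 h, stood at 3448 CPM at 23 h and 1451 CPM at 24 h, and was lowest at 27 h with 1192 CPM, around a median of 2698 CPM. miR-76-3p reached 640 CPM at 22 h, stood at 516 CPM at 23 h and 205 CPM at 24 h, and was lowest at 27 h with 99.3 CPM, around a median of 317 CPM. At 25 h both were higher again, at 2862 and 339 CPM, above their 21 h levels of 2698 and 317 CPM. For both, the late hours of 26 to 30 h lay below every early hour, at 1192 to 1714 against 2793 to 4669 CPM for miR-244-5p and at 99.3 to 208 against 385 to 554 CPM for miR-76-3p.

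As a sum, the neuronal markers also averaged lower from 24 h in Alg1E, but the single markers differed. Their fitted log2 changes in Alg1E were -1.30 for miR-124-3p, -0.46 for lsy-6-3p and -0.04 for miR-791-3p. The summed level of lsy-6-3p, miR-124-3p and miR-791-3p in Alg1E was 335 CPM at 23 h and 203 CPM at 24 h, and averaged 337 CPM up to 23 h and 175 CPM from 24 h. Its highest and lowest hours, 22 h with 417 CPM and 27 h with 88.9 CPM, are those of miR-244-5p and miR-76-3p. The 27 h library stood apart, in part for this low sum. In N2 the same sum averaged 269 CPM up to 23 h and 246 CPM from 24 h. It was highest there at 18 h with 367 CPM and lowest at 30 h with 179 CPM. All 3 markers were detected in every library, and their part in the lower levels of miR-244-5p and miR-76-3p was not tested. The fitted log2 changes in Alg1E were -1.40 for miR-76-3p, -1.01 for miR-244-5p, -0.55 for miR-254-3p and -0.45 for miR-1022-5p. The minor arm miR-244-3p had -3.01, the lowest of the 243 miRNAs in Alg1E.

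**Figure D2:**
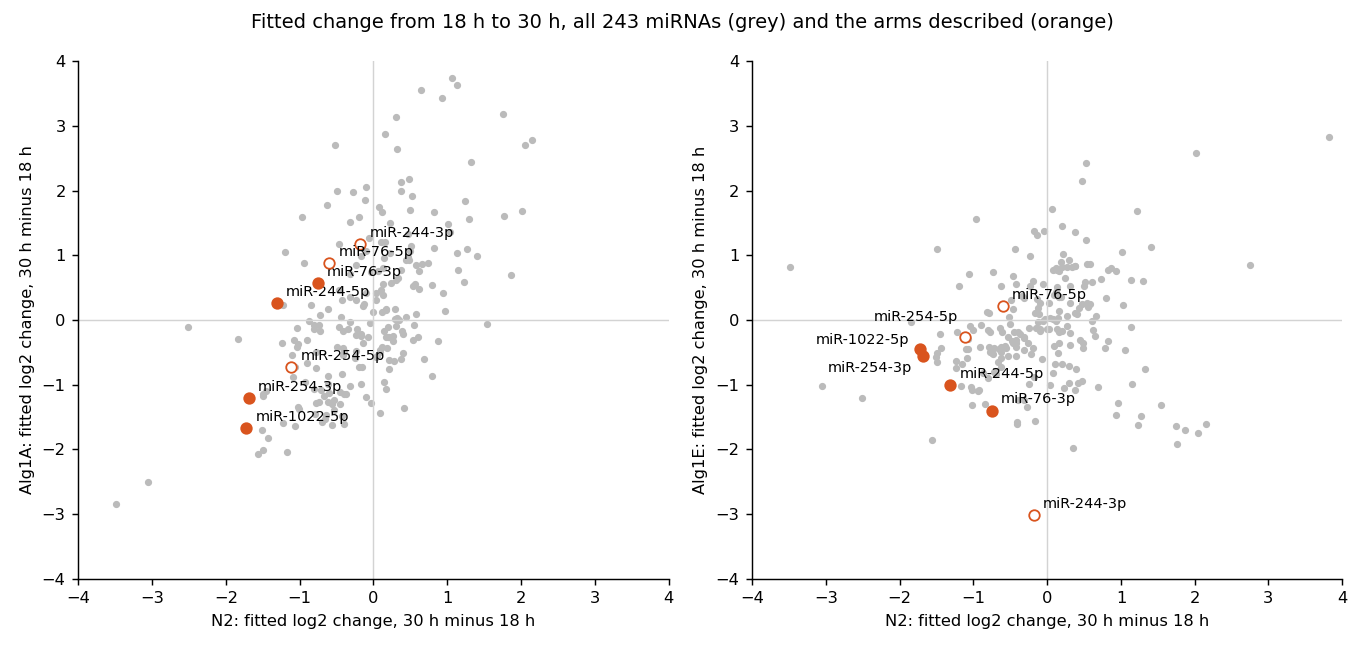
Fitted log2 change from 18 to 30 h in Alg1A (left, vertical axis) and in Alg1E (right, vertical axis) against that in N2 (horizontal axis) for the 243 miRNAs tested (grey), with the 4 major arms as filled and the 3 minor arms as open orange circles. miR-1022-5p and miR-254-3p lie low on both axes at left, at -1.67 and -1.21 in Alg1A, miR-244-3p lies lowest at right with -3.01, and 17 and 15 miRNAs lie outside the axes, which end at a log2 change of 4 in either direction.

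Over matched hours, all 4 major arms were lower in Alg1E than in N2, and 2 minor arms were higher. Of the 243 miRNAs, 182, or 74.9%, differed between Alg1E and N2, with 94 (38.7%) lower and 88 (36.2%) higher, so 6 called of 7 members stands near the background. miR-244-5p averaged 2635 ± 1260 CPM in Alg1E and 4528 ± 1402 CPM in N2 (SD over n = 13 hours, which holds the change with time as well). The log2 difference was -0.86 with an SE of 0.181, and Alg1E was lower at 11 of 13 hours (edgeR quasi-likelihood test, adjusted p = 1.03e-04). miR-254-3p averaged 81.5 ± 20.0 CPM in Alg1E and 140 ± 56.9 CPM in N2, a log2 difference of -0.69 with an SE of 0.138, lower at 10 of 13 hours (edgeR, adjusted p = 4.36e-05). miR-1022-5p averaged 31.3 ± 8.43 against 49.5 ± 19.6 CPM, a log2 difference of -0.57 with an SE of 0.169, also lower at 10 of 13 hours (edgeR, adjusted p = 0.00343). miR-76-3p averaged 330 ± 180 against 438 ± 108 CPM, a log2 difference of -0.54 with an SE of 0.215, lower at 10 of 13 hours (edgeR, adjusted p = 0.0260).

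These averages cover different hours in the 2 pairs. miR-1022-5p was lower in Alg1E by a mean log2 difference of -1.36 at 18 to 20 h and of -0.93 at 21 to 25 h, and stood at 0.21 at 26 to 30 h. miR-254-3p had -1.16, -0.95 and -0.16 in the same windows. At 18 to 20 h the genotypes did not overlap, with 26.1 to 31.02 CPM in Alg1E and 64.4 to 83.1 CPM in N2 for miR-1022-5p, and 83.7 to 86.1 against 158 to 221 CPM for miR-254-3p. At 26 to 30 h they did. miR-244-5p had differences of -0.74, -0.49 and -1.36 and miR-76-3p of -0.18, 0.12 and -1.52, and here the groups did not overlap at 26 to 30 h, where miR-244-5p was at 1192 to 1714 CPM in Alg1E and 3092 to 4412 CPM in N2. How many of all 243 miRNAs separate between Alg1E and N2 in these windows was not counted, so the separation is not shown to be particular to these members. Whether the difference itself changes with hour was not tested, since the time courses chose the members. Differences at neighbouring hours were also alike, with a correlation between an hour and the next of 0.376 at the median of all 243 miRNAs, 0.701 for miR-1022-5p and 0.630 for miR-76-3p, so 13 hours give less than 13 independent differences.

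The 4 lower calls depend on the scaling. With TMM factors taken from major arms alone, the median log2 difference of all 243 miRNAs moved from 0.01 to 0.44, the split of all calls from 88 higher and 94 lower to 125 and 52, and the 4 differences moved to -0.41 for miR-244-5p, -0.25 for miR-254-3p, -0.13 for miR-1022-5p and -0.09 for miR-76-3p (edgeR, adjusted p = 0.0501, 0.0647, 0.477 and 0.745). All 4 lay below the median of all miRNAs under that scaling, but that median includes minor arms. It does not show where a typical major arm stands, so it cannot decide whether these 4 were low. With total counts, where that median was 0.28, miR-1022-5p at -0.29 and miR-76-3p at -0.26 were lost too (edgeR, adjusted p = 0.106 and 0.286), while the calls of miR-244-5p and miR-254-3p held. With N2 taken 2 h younger than Alg1E, the 4 differences were -1.12, -0.97, -0.83 and -0.81 in the same order (edgeR, adjusted p from 5.24e-05 to 0.00758). The members were chosen for falling with hour in N2 or Alg1E, so this shift itself favours lower values in Alg1E. It is therefore no independent check of the 4 calls. The call of miR-76-3p was lost without the 27 h libraries, where the log2 difference was -0.40 (edgeR, adjusted p = 0.0814). It was also lost without the 26, 28 or 29 h libraries, at -0.50, -0.45 and -0.46 (edgeR, adjusted p = 0.0549, 0.0637 and 0.0656), and with no hour term, at -0.41 (edgeR, adjusted p = 0.0802).

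**Figure D3:**
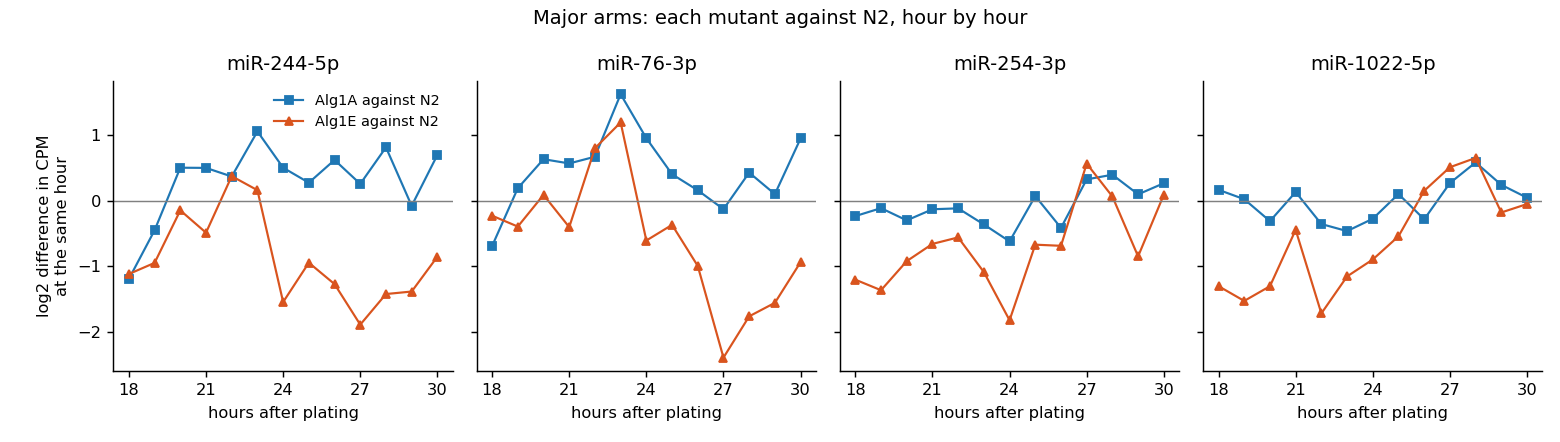
Log2 difference in CPM between each mutant and N2 at the same hour (vertical axis) against hours after plating for the 4 major arms, with 1 point per pair of libraries, Alg1A against N2 as blue squares and Alg1E against N2 as orange triangles. For miR-254-3p and miR-1022-5p the Alg1E points lie below 0 at every hour from 18 to 25 h, and for miR-244-5p and miR-76-3p they lie below 0 at every hour from 24 h.

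Between Alg1A and N2, 26 of the 243 miRNAs (10.7%) differed, 21 (8.64%) higher and 5 (2.06%) lower in Alg1A, and of the 7 members 1 did, the minor arm miR-254-5p, which was higher. It averaged 10.01 ± 3.42 CPM in Alg1A and 4.90 ± 1.84 CPM in N2, with lowest, median and highest levels of 1.47, 11.03 and 13.7 CPM against 1.86, 5.26 and 7.49 CPM. Alg1A was higher at 12 of 13 hours, by a log2 difference of 1.02 with an SE of 0.285 (edgeR, adjusted p = 0.0134). These levels rest on 4 to 55 reads per Alg1A library and 3 to 28 per N2 library. miR-254-3p, the other arm of that hairpin, had a difference of -0.11 and miR-1022-5p of -0.03 (edgeR, adjusted p = 0.5999 and 0.904). miR-244-5p, at 5493 ± 1167 CPM in Alg1A, had a log2 difference of 0.32 with an SE of 0.179 and was higher at 10 of 13 hours (edgeR, adjusted p = 0.242). miR-76-3p, at 589 ± 103 CPM in Alg1A, had 0.43 with an SE of 0.210 and was higher at 11 of 13 hours (edgeR, adjusted p = 0.192). The remaining values were 0.58 for miR-244-3p and 0.51 for miR-76-5p (edgeR, adjusted p = 0.158 and 0.256). Without the 3 libraries that stood apart, 76 miRNAs were called, and 4 members among them, with miR-244-5p at 0.46, miR-76-3p at 0.54 and miR-244-3p at 0.76 added to miR-254-5p at 1.02 (edgeR, adjusted p from 4.40e-04 to 0.0291).

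For miR-244-5p and miR-76-3p the order of mean levels was therefore Alg1A, N2, Alg1E, and for miR-254-3p and miR-1022-5p N2, Alg1A, Alg1E, where, over all libraries, Alg1A and N2 did not differ beyond the spread between hours in either pair. Alg1E differed from Alg1A in 190 of the 243 miRNAs (78.2%) and in 6 of the 7 members. miR-244-5p had a log2 difference of -1.17 and miR-76-3p of -0.97 between Alg1E and Alg1A, each lower at 11 of 13 hours (edgeR, adjusted p = 1.32e-06 and 1.94e-04). miR-254-3p had -0.58, lower at 12 of 13 hours, and miR-1022-5p -0.54, lower at 10 (edgeR, adjusted p = 3.75e-04 and 0.00511). Under the major-arm scaling, which moved the median of all miRNAs from -0.06 to 0.31, the calls of miR-254-3p at -0.22 and miR-1022-5p at -0.17 were lost (edgeR, adjusted p = 0.121 and 0.362). The call of miR-1022-5p was also lost without the 18 and 19 h libraries, at -0.37, and with total counts, at -0.35 (edgeR, adjusted p = 0.0584 and 0.0570). The comparisons share their libraries pairwise, so they are not independent of each other.

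The minor arms of mir-244 and mir-76 were the members that stood higher in Alg1E. miR-244-3p had a lowest level of 123 CPM at 30 h, a median of 291 CPM and a highest of 735 CPM at 18 h in Alg1E, and 31.7, 59.3 and 112 CPM in N2, so every Alg1E library lay above every N2 library. Means were 327 ± 190 CPM in Alg1E and 64.4 ± 24.6 CPM in N2 (SD, n = 13), a log2 difference of 2.36 with an SE of 0.280, a 5.14-fold higher level at 13 of 13 hours (edgeR, adjusted p = 8.74e-09). The course in Alg1E was uneven, with 735 CPM at 18 h, 154 CPM at 23 h, 453 CPM at 25 h and 123 CPM at 30 h. Against Alg1A, where it averaged 92.4 ± 33.6 CPM, the log2 difference was 1.78, higher at 12 of 13 hours (edgeR, adjusted p = 1.25e-06). miR-76-5p was low everywhere, at 7.18 ± 3.49 CPM in Alg1E, 2.97 ± 1.58 CPM in Alg1A and 2.10 ± 0.991 CPM in N2. Its lowest, median and highest levels were 2.28, 6.23 and 15.1 CPM in Alg1E and 0.618, 2.07 and 3.88 CPM in N2. The log2 difference of Alg1E was 1.67 against N2, higher at 13 of 13 hours, and 1.15 against Alg1A, higher at 11 (edgeR, adjusted p = 4.84e-06 and 4.77e-04).

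miR-254-5p averaged 7.72 ± 3.29 CPM in Alg1E, between its level in N2 and that in Alg1A. Alg1E was higher than N2 at 11 of 13 hours with a log2 difference of 0.62 and an SE of 0.297, and did not pass the test (edgeR, adjusted p = 0.0605). At 27 h it had 0 reads in Alg1E, which allows up to 0.622 CPM, while its partner miR-254-3p had 651 reads in that library. Without the 27 h libraries the log2 difference was 0.81 and passed (edgeR, adjusted p = 4.80e-04), as did 0.75 without the 3 libraries that stood apart (edgeR, adjusted p = 0.00114). It also passed with total counts at 0.90, with major-arm scaling at 1.08 and with hour as a spline at 0.61 (edgeR, adjusted p = 0.00934, 0.00267 and 0.0418). Against Alg1A the difference was -0.40 (edgeR, adjusted p = 0.192).

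Each hairpin's ratio of minor to major arm is free of scaling between libraries. limma tested it for the 94 hairpins whose arms both averaged 10 reads or more, which included 3 of the 4 hairpins and left out mir-1022. In Alg1E the ratio differed from N2 in 83 of 94 hairpins (88.3%), in 81 (86.2%) upward and in 2 (2.13%) downward, with a median log2 difference of 2.05, so a shift toward the minor arm is the common case. The miR-244 ratio was 8.59-fold higher in Alg1E than in N2, a log2 difference of 3.10 with an SE of 0.324 that was positive at 13 of 13 hours (limma, adjusted p = 4.05e-10). Reads of miR-244-3p amounted to 1.54% ± 0.832 of those of miR-244-5p in N2, 1.71% ± 0.595 in Alg1A and 14.3% ± 8.45 (SD, n = 13) in Alg1E. In Alg1E this share was lowest at 22 h with 3.29% and highest at 27 h with 32.7%, with a median of 13.3%, while in N2 it ran from 0.819% to 3.46%. The Alg1E values of 22 h and N2 values of 23 h thus overlapped, though at each hour Alg1E was higher.

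The miR-76 ratio was 4.80-fold higher in Alg1E than in N2, a log2 difference of 2.26 with an SE of 0.279, positive at 13 of 13 hours (limma, adjusted p = 1.06e-08). miR-76-5p reads were 0.491% ± 0.216 of those of miR-76-3p in N2, 0.516% ± 0.305 in Alg1A and 2.47% ± 1.05 in Alg1E. The lowest Alg1E library, 20 h with 1.15%, lay above the highest N2 library, 24 h with 0.785%. The miR-254 ratio had a log2 difference of 1.03 between Alg1E and N2 with an SE of 0.494, higher at 11 of 13 hours, and did not pass (limma, adjusted p = 0.0511). Without the 27 h libraries it was 1.64 and without the 28 h libraries 1.13, and it then passed (limma, adjusted p = 2.43e-07 and 0.0466). It also passed without the 3 libraries that stood apart, at 1.63, and with 2 in place of 0.5 added to each count, at 1.11 (limma, adjusted p = 3.43e-07 and 0.00885). miR-254-5p reads were 3.80% ± 1.67 of those of miR-254-3p in N2, 8.22% ± 3.03 in Alg1A and 10.1% ± 4.19 in Alg1E.

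**Figure D4:**
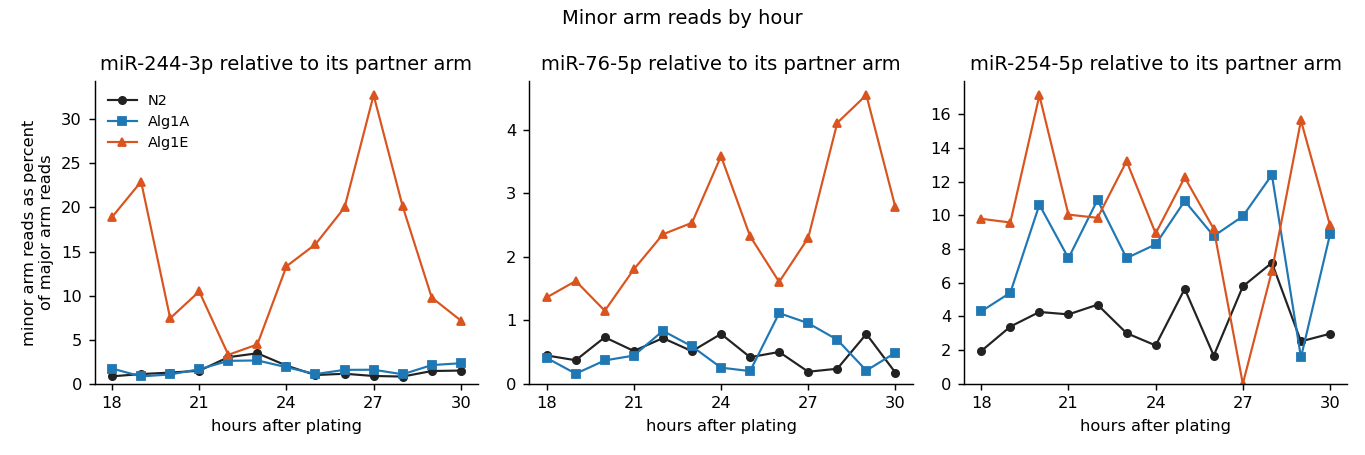
Reads of the minor arm as a percent of reads of the major arm (vertical axis, linear from 0) against hours after plating for mir-244, mir-76 and mir-254, with 1 point per library in N2 (black circles), Alg1A (blue squares) and Alg1E (orange triangles). The Alg1E points lie above N2 at 13 of 13 hours for mir-244 and mir-76, and for mir-254 the Alg1E library of 27 h has 0 reads of the minor arm.

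In Alg1A the arm ratio differed from N2 in 20 of 94 hairpins (21.3%), and none of the 3 was among them by limma at the adjusted threshold, though miR-254 had an unadjusted p of 0.0406. The log2 differences were 0.22 for miR-244, -0.03 for miR-76 and 1.06 for miR-254 (limma, adjusted p = 0.599, 0.907 and 0.127). The miR-254 ratio was higher in Alg1A at 12 of 13 hours and was called without the 27 h libraries, at 1.08 (limma, adjusted p = 0.00107). It was also called without the 3 libraries that stood apart, at 1.11 (limma, adjusted p = 6.83e-04). Between Alg1E and Alg1A, where 81 of 94 hairpins (86.2%) differed, 77 (81.9%) upward and 4 (4.26%) downward, miR-244 had 2.88 and miR-76 had 2.295, each positive at 13 of 13 hours (limma, adjusted p = 2.23e-09 and 1.07e-08). miR-254 had -0.03 (limma, adjusted p = 0.956), and 0.56 without the 27 h libraries (limma, adjusted p = 0.0287). Over the Alg1A hours, 27 of 94 ratios (28.7%) changed, and none of the 3 hairpins did, with fitted log2 changes of 1.08 for miR-244, 0.31 for miR-76 and 0.06 for miR-254 (limma, adjusted p = 0.354, 0.772 and 0.423, and unadjusted p = 0.288, 0.698 and 0.355). Without the 18 h library alone, the miR-244 ratio was called, with a fitted change of 1.64 from 19 to 30 h (limma, adjusted p = 0.0341). Without both the 18 and 19 h libraries, which stood apart, its fitted change from 20 to 30 h was 1.09 and was not called (limma, adjusted p = 0.213).

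miR-1022-3p, the arm below the filter, had 34 reads over the 13 N2 libraries, 63 in Alg1A and 77 in Alg1E, with 0 to 18 reads per library. It had 0 reads at 25, 27 and 29 h in N2 and at 30 h in both mutants. Its reads were 1.61% ± 1.47 of those of miR-1022-5p in N2, 3.06% ± 1.72 in Alg1A and 7.07% ± 3.56 (SD, n = 13) in Alg1E, and no test was made of them.

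The likeness of log2 CPM over the 39 libraries is a description of the same split. Pearson's r was 0.88 between miR-254-3p and miR-1022-5p, with 0.94 within N2, 0.94 within Alg1A and 0.40 within Alg1E. It was 0.92 between miR-244-5p and miR-76-3p, with 0.74, 0.60 and 0.97 in the same order. The depth and scaling of a library enter the levels of all its miRNAs, and members share the choice by time course, so these values carry no test. Between the pairs it was 0.09 for miR-1022-5p with miR-76-3p, 0.26 for miR-1022-5p with miR-244-5p, 0.27 for miR-254-3p with miR-76-3p and 0.46 for miR-254-3p with miR-244-5p. Within Alg1E, miR-1022-5p had -0.61 with miR-76-3p and -0.63 with miR-244-5p, and miR-254-3p had 0.05 and 0.12. Partner arms, whose means differ between genotypes, had an r over all libraries of -0.47 for mir-244, -0.10 for mir-76 and 0.03 for mir-254. Within N2, Alg1A and Alg1E it was -0.0051, 0.39 and 0.18 for mir-244, 0.33, 0.14 and 0.71 for mir-76, and 0.52, 0.37 and -0.55 for mir-254.

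Outside the 8 arms, the miRNAs most like miR-1022-5p were miR-57-5p with r = 0.83, miR-245-3p with 0.82 and miR-233-3p with 0.81. Those most like miR-254-3p were miR-228-5p with 0.85, miR-57-5p with 0.85 and miR-242 with 0.82. miR-57 is known for a role in posterior cell fate, and the mir-228 promoter is active in glia. miR-57-5p had the course of this pair, with 7905 CPM at 18 h and 4495 CPM at 30 h in N2, 7506 and 4019 CPM in Alg1A, and 3210 and 3538 CPM in Alg1E. miR-76-3p was most like miR-232-3p with 0.92, the neuronal miR-124-3p with 0.88 and miR-1821-3p with 0.87, and its r with miR-124-3p was 0.38 within N2, 0.75 within Alg1A and 0.98 within Alg1E. miR-232-3p stood at 549 CPM at 18 h and 229 CPM at 30 h in Alg1E. miR-244-5p was most like miR-1821-3p with 0.89, miR-74-3p with 0.88 and miR-67-3p with 0.87. The minor arm miR-244-3p was most like miR-84-3p with 0.91, miR-237-3p with 0.88 and miR-39-5p with 0.87, each with a higher mean in Alg1E than in N2, for example miR-237-3p with 457 ± 246 CPM in Alg1E and 42.9 ± 21.3 CPM in N2. For miR-76-5p the nearest were miR-238-5p with 0.82, miR-64-3p with 0.79 and miR-2-5p with 0.79, and for miR-254-5p they were miR-86-5p with 0.66, miR-65-3p with 0.60 and miR-2-3p with 0.58. These r values hold differences between genotypes as well as courses over hours. Within N2, Alg1A and Alg1E, miR-254-5p had -0.13, 0.43 and 0.92 with miR-86-5p and -0.37, 0.26 and 0.83 with miR-65-3p. In the same order, miR-244-3p had 0.77, 0.25 and 0.74 with miR-84-3p, and miR-1022-5p had 0.94, 0.91 and 0.36 with miR-57-5p.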

How the data were processed

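The authors deposited a table of raw read counts, whole numbers that were not normalized, with a line for every mature miRNA. It covers 437 miRNAs, and its 5 summary entries that name no gene entered neither library sizes nor tests. They include reads without a feature, on average 37.2% of all reads for N2, 35.3% for Alg1A and 49.5% for Alg1E. Per the labels' protocols, libraries were built with a QIAseq miRNA Library Kit. cutadapt 2.3, Bowtie 1.2.2, SAMtools 1.9, HTSeq and the build ce11 were used, per the submitters' processing notes. How these tools were set, and whether the molecular identifiers in the kit were used, is not given in the sources used here, so PCR copies may be counted as reads and the zero limit of 3 reads covers counting error only.

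The quasi-likelihood test of edgeR 4.0.16 (R 4.3.3) was run on the counts, scaled by TMM, of the 243 miRNAs that filterByExpr kept. The model for genotypes held genotype and hour, both as factors, over all 39 libraries. The SE of a log2 difference is its size over the square root of the test's F value. The Alg1A time course was tested on its 13 libraries with a natural spline of 3 degrees of freedom. Its p-value takes the 3 spline terms together, for arm ratios too, so it tests any change with hour. The change given is the curve's value at 30 h less its value at 18 h. Where end hours are left out, it runs from the first to the last hour kept. Log2 ratios of the minor over the major arm, with 0.5 added to each count, were tested with limma 3.58.1, where the minor arm has fewer reads over all libraries. Of 190 hairpins with both arms, 94 had a mean of at least 10 reads in each. All tests were two-sided with Benjamini-Hochberg adjustment over all features tested and a threshold of 0.05. Likeness is Pearson's r of log2 CPM with a prior count of 2, and the 3 highest per member are named. The scripts were tested on simulated data. Alternatives were other scalings, filters, hour terms, DESeq2 1.42.0, and left-out libraries. The members and lists were chosen with earlier results of these data known, and the 3 libraries that stand apart were left out as an alternative chosen after seeing the data. Gene positions are from the Ensembl annotation of WBcel235.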

Additional observations from a re-analysis of the deposited data

How the results depend on the processing

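Results were recomputed under 23 or 24 settings for levels and 17 for arm ratios. In Alg1E against N2, 6 members were called, 3 with TMM from major arms, and 5 to 7 under the other settings. In Alg1A against N2, leaving out hours 18 and 19 gave 48 calls with 2 members, and leaving out the 3 libraries that stand apart gave 76 with 4. Without those 3, the arm ratio differed between Alg1A and N2 in 39 hairpins with 1 member. The arm ratio changed with hour in Alg1A in 13 hairpins with no minimum of reads, and in 10 without hours 18 and 19 and without the 3 libraries. Leaving out 1 hour at a time gave 12 to 38 such hairpins with 0 to 1 members, and 0 to 1 members for the arm ratio of Alg1A against N2.

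Some values changed sign, none of them called before or, except miR-254 in Alg1E against Alg1A, after. miR-1022-5p in Alg1A against N2 was 0.053 with total counts and 0.035 with major arms, and -0.078 to 0.00336 with an hour left out. Over the Alg1A hours, the settings without hours 18 and 19 and without the 3 libraries span 20 to 30 h in place of 18 to 30 h. There, miR-244-5p was -0.61 and -0.60, miR-76-3p -0.19 and -0.17, and miR-76-5p -0.49 and -0.48. With an hour left out, miR-244-5p was -0.12 to 0.44. The miR-254 arm ratio of Alg1E against Alg1A was 0.13 with a pseudocount of 2, 0.51 without the 3 libraries and -0.30 to 0.56 with an hour left out. The miR-76 arm ratio of Alg1A against N2 was 0.038 without hours 18 and 19 and -0.22 to 0.11 with an hour left out. The arm ratio change over Alg1A hours was -1.03 for miR-254 and -0.44 for miR-76 under both of those settings, and -0.56 to 1.10 and -0.14 to 0.97 with an hour left out. The causes were not tested. Among the members tested, depth limits miR-76-5p and miR-254-5p most, with as few as 1 and 0 reads in a library.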
